A study of Mus musculus with 30 samples.

Results

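Cholesterol synthesis and its control by SREBP2 were described here through 26 genes, the rows of the deposited expression table whose gene symbol was on a list of pathway members, out of 55357 rows in all. Each of the 26 symbols matched 1 row, and all 26 passed the filter on low values in every comparison. RNA sequencing had been done on brown adipose tissue (BAT), liver and subcutaneous white adipose tissue (sWAT) of C57BL/6N mice, an inbred laboratory strain. All mice received a high-fat diet (HFD), and in each tissue 5 libraries came from mice on HFD alone and 5 from mice that also received imeglimin, a glucose-lowering drug taken by mouth. The labels give neither dose, age, duration nor sex, and no group on a normal diet was analysed here. The design text states 4 against 4, whereas the labels give 5 in each of the 6 groups, and the labels were followed. Library numbers 75, 76, 79, 80 and 83 are HFD and 86, 88, 89, 91 and 94 are imeglimin in every tissue, and values by library follow that order. Nothing in the labels says whether equal numbers or separate libraries mark separate animals, and a p-value here therefore covers the spread from library to library, part of which may be technical.

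Cholesterol is built from acetyl-CoA through mevalonate, isoprenoid pyrophosphates, squalene and lanosterol. The transcription factor SREBP2, encoded by Srebf2, sits in the endoplasmic reticulum membrane with its escort SCAP. When sterols are low SCAP carries it to the Golgi, where it is cut so that its active part enters the nucleus and switches on the genes of the pathway. When sterols are plentiful the INSIG proteins hold SCAP back. Liver is the classical site of regulated cholesterol synthesis, whereas fat tissue is known as a large store of free cholesterol.

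Values are TPM, a measure of transcripts per length with each library scaled to the same total, so levels of different genes can be compared. In the deposited table, on build GRCm39, Nsdhl (ENSMUSG00000031349.5) lies at chrX:71962163-72002120, Insig1 (ENSMUSG00000045294.12) at chr5:28276361-28283660, Lss (ENSMUSG00000033105.13) at chr10:76367422-76392972 and Sc5d (ENSMUSG00000032018.15) at chr9:42162891-42175552. Differences are on the log2(TPM + 1) scale, where the change of genes with few transcripts comes out too small, and p-values are from limma with adjustment over all genes tested and a threshold of 0.05. Ucp1, Alb and Lep followed the tissue labels. The brown fat gene Ucp1, which makes an uncoupling protein, ranged from 4102 to 5950 TPM in BAT and was at most 1.53 TPM elsewhere. Alb, serum albumin, ranged from 45850 to 63710 TPM in liver and was at most 702.6 TPM in BAT and 6876 TPM in sWAT. Lep, leptin, ranged from 1360 to 6149 TPM in sWAT and was at most 119.4 TPM in BAT. Of the 6 brown adipocyte markers, Elovl3 alone went the other way, with HFD medians of 392.9 TPM in liver and 23.96 TPM in BAT. Some libraries stood apart. In sWAT imeglimin 88 all 6 B cell and lymph node markers were present with a sum of 1350 TPM, against 1.94 to 6.49 TPM in the other 9 sWAT libraries, and its 8 hepatocyte markers summed to 13750 TPM, against 431.8 to 1089 TPM. In BAT HFD 79 and BAT imeglimin 94 the 8 skeletal muscle markers summed to 5279 and 4641 TPM, against 101 to 705.5 TPM in the other HFD libraries of BAT and 42.2 to 200.7 TPM in the other imeglimin libraries. Transcripts encoded by the mitochondrial genome took 37.1 to 40.8% of TPM in BAT and 11.1 to 15% in liver and sWAT.

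The promoters of 6 members are shown as the 250 bases before the annotated start, from RefSeq on build GRCm38.p6, 5′ to 3′. Idi1, Lss, Nsdhl, Sc5d and Insig1 were among the members of lowest p in BAT or sWAT. Hmgcs1 was not among these and was not picked by its differences. Capitals mark a sterol response element (SRE) spelled TCACNCCAC, the sequence bound by SREBP2, or the box CCAAT, bound by NF-Y, a factor known to act beside SREBP2 at sterol-regulated promoters, on either strand.
Hmgcs1 promoter, chr13:119690101-119690350, plus strand: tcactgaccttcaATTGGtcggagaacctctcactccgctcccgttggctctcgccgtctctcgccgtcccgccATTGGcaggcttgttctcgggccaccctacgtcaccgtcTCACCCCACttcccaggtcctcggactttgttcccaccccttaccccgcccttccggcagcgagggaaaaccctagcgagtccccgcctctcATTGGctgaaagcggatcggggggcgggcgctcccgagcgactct
Idi1 promoter, chr13:8885356-8885605, plus strand: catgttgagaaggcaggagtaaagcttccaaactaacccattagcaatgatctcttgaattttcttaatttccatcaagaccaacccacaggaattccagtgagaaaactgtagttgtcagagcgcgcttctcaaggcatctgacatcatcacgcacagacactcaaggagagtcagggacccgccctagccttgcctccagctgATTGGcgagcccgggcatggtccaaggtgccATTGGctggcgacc
Lss promoter, chr10:76531355-76531604, plus strand: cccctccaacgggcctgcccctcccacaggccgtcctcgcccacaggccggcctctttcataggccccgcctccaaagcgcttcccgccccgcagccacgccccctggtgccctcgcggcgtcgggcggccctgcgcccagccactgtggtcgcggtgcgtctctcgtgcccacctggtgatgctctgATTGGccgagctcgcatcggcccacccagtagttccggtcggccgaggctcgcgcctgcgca
Nsdhl promoter, chrX:72918271-72918520, plus strand: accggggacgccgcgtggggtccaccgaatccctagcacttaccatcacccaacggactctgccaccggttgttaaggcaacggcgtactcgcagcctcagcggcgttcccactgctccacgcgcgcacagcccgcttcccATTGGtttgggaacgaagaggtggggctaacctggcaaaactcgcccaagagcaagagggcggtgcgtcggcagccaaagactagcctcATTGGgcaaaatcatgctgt
Sc5d promoter, chr9:42264301-42264550, minus strand: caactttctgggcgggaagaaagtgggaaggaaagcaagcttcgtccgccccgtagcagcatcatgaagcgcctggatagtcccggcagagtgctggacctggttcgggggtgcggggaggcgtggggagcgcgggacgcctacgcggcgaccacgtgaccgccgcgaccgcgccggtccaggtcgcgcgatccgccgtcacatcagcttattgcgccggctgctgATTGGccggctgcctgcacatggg
Insig1 promoter, chr5:28071162-28071411, plus strand: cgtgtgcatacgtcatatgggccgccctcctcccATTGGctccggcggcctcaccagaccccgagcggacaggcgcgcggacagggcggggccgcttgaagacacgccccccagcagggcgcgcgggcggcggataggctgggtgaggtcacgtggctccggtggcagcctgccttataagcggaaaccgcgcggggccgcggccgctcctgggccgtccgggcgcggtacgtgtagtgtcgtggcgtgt
Windows were found for 22 of the 26 members and not for Fdps, Fdft1, Sqle and Stard4. The SRE as spelled was in the Hmgcs1 window alone, at position −137 from the start, which is 1 of 22 members against 1.22% of all 27025 genes with a window. The CCAAT box was present in 20 of the 22, or 90.9%, against 37.5% of all genes, and Acat2 and Scap were the members without it. The box GGGCGG, on either strand and not capitalised above, was likewise in 20 of the 22, or 90.9%, against 35.4% of all genes. No match overlapped another in the Hmgcs1 window. These matches describe letters, and say nothing of whether a factor was bound.

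In BAT, none of the 26 members passed the threshold between imeglimin and HFD. Of the 11402 genes tested in BAT, 98 or 0.859% were called lower and 1 or 0.00877% higher. The members lay low on balance: 23 of 26 had a lower mean with imeglimin, where 76.9% of all genes tested did, and their median log2 difference was −0.26 against −0.12 for all genes. At an unadjusted p under 0.05, 11 members or 42.3% were lower against 23% of all genes, and none was higher against 1.25%. In 4 members, Idi1, Fdps, Sqle and Lss, every imeglimin library was below every HFD library, which is 15.4% of members against 6.58% of all genes tested, and no member lay above in every library, against 0.228%. BAT as a whole shifted by −0.12, so differences are also given relative to that median.

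In the mevalonate part, Acat2, the acetyl-CoA acetyltransferase that makes acetoacetyl-CoA, stood at 85.8, 77.2, 80.3, 99.6 and 73.2 TPM in the HFD libraries and at 69.8, 74.8, 63.9, 64.3 and 67.4 TPM in the imeglimin libraries in BAT. Imeglimin 88 exceeded HFD 83, so the groups overlapped, and the log2 difference was −0.28 (SE 0.0835, adjusted p = 0.0895). Its reads could have been divided with those of its close paralog Acat3, so its level is uncertain. Hmgcs1, which makes HMG-CoA, had a mean of 117 ± 24.9 TPM on HFD and 97.4 ± 22.6 TPM under imeglimin (SD, n = 5), a difference of −0.27 (SE 0.172, adjusted p = 0.353). Mvd, the decarboxylase that yields isopentenyl pyrophosphate, stood at 4.04, 2.84, 4.87, 5.14 and 4.79 TPM in the HFD libraries and at 2.92, 1.99, 2.59, 4.45 and 2.75 TPM in the imeglimin libraries. HFD 76 and imeglimin 91 lay among the libraries of the other group, and the difference was −0.45 (SE 0.17, adjusted p = 0.145). The kinases Mvk and Pmvk, which phosphorylate mevalonate in succession, had log2 differences of −0.25 and −0.33 with adjusted p of 0.250 and 0.151.

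Among the isoprenoid enzymes, Idi1, which interconverts isopentenyl and dimethylallyl pyrophosphate, stood at 14.9, 15.95, 17.7, 20.97 and 16.7 TPM in the HFD libraries and at 13.4, 13.8, 12.3, 11.6 and 12.95 TPM in the imeglimin libraries. All 5 imeglimin values lay below all 5 HFD values, and the log2 difference was −0.40 (SE 0.0887, adjusted p = 0.0572). Fdps, farnesyl pyrophosphate synthase, stood at 12.2, 14.5, 16.3, 14.4 and 13.6 TPM in the HFD libraries and at 11.7, 9.79, 10.1, 9.502 and 11.8 TPM in the imeglimin libraries. The lowest HFD library, 75, was still above the highest imeglimin library, 94, with a difference of −0.39 (SE 0.0863, adjusted p = 0.0556). Ggps1, which diverts farnesyl pyrophosphate to geranylgeranyl pyrophosphate, had a log2 difference of −0.23 (SE 0.0925, adjusted p = 0.161).

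At the squalene steps, Sqle, the squalene epoxidase that is a known control point of the pathway, stood at 1.56, 1.75, 2.39, 3.08 and 1.85 TPM in the HFD libraries and at 1.47, 1.03, 1.05, 1.36 and 0.9204 TPM in the imeglimin libraries. Its values were low, the groups did not overlap, and HFD 80 was the highest of the 10, with a difference of −0.51 (SE 0.136, adjusted p = 0.0747). Lss, lanosterol synthase, stood at 4.002, 4.78, 4.799, 5.63 and 4.54 TPM in the HFD libraries and at 3.54, 3.87, 3.09, 2.66 and 3.12 TPM in the imeglimin libraries. Again no imeglimin library reached the lowest HFD library, and the difference was −0.44 (SE 0.0982, adjusted p = 0.0580). Fdft1, squalene synthase, had a log2 difference of −0.27 (SE 0.194, adjusted p = 0.411), and its groups overlapped.

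After lanosterol, Sc5d, the sterol C5-desaturase late in the pathway, had the widest gap of the 26 in BAT. It stood at 23.7, 27.7, 25.99, 35.1 and 19.6 TPM in the HFD libraries and at 21.2, 13.3, 13.7, 14.7 and 15.2 TPM in the imeglimin libraries. Imeglimin 86 lay above HFD 83, the other 4 imeglimin libraries lay below all HFD libraries, and the log2 difference was −0.72 (SE 0.156, adjusted p = 0.0556), or −0.60 relative to the median of all genes. Nsdhl, a sterol dehydrogenase of the C4-demethylation complex, stood at 16.2, 18.5, 18.6, 20.6 and 15.2 TPM in the HFD libraries and at 15.8, 13.4, 11.7, 12.4 and 12.3 TPM in the imeglimin libraries. Only imeglimin 86 passed the lowest HFD library, 83, and the difference was −0.41 (SE 0.09801, adjusted p = 0.0611). Hsd17b7, the ketoreductase of the same complex, had a log2 difference of −0.34 (SE 0.131, adjusted p = 0.147), and Msmo1, its methyl oxidase, one of −0.24 (SE 0.145, adjusted p = 0.325). Cyp51, the lanosterol demethylase, had a log2 difference of −0.15 and Dhcr7, which reduces 7-dehydrocholesterol, one of −0.25. Ebp, the sterol isomerase, and Tm7sf2, a sterol reductase, had differences above 0, at 0.14 and 0.12 with adjusted p of 0.494 and 0.516.

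The 4 control genes had log2 differences from −0.33 to −0.09 in BAT. Srebf2 averaged 9.64 ± 0.988 TPM on HFD alone and 8.21 ± 1.12 TPM under imeglimin (SD, n = 5), a log2 difference of −0.21 (SE 0.0964, adjusted p = 0.207). Insig1, itself a target of SREBP2 and part of its feedback, averaged 119 ± 21.8 and 94.3 ± 18.4 TPM and had a log2 difference of −0.33 (SE 0.153, adjusted p = 0.208). Scap and Insig2 had log2 differences of −0.09 and −0.14. Among genes of sterol handling, Mylip, the ubiquitin ligase also known as IDOL that is induced by sterol excess, had the largest positive difference of the 26, 0.31 (SE 0.194, adjusted p = 0.348). Stard4, a sterol carrier, and Tmem97, a membrane protein that responds to sterols, had log2 differences of −0.06 and −0.11.

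**Figure D1:**
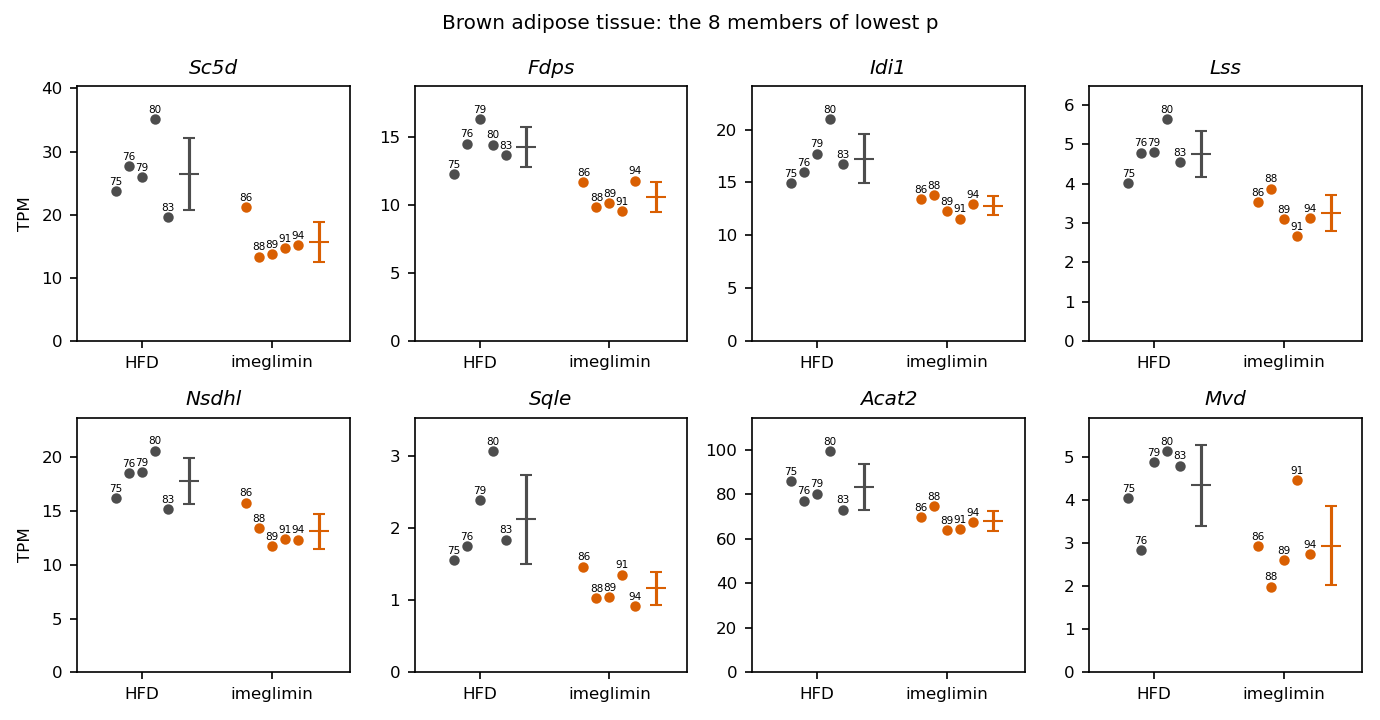
TPM (vertical axis, linear, from 0) of the 8 members with the lowest p in BAT, by treatment (horizontal axis). Points are libraries with their numbers, and bars are the mean ± SD of 5 libraries. The groups do not overlap for Fdps, Idi1, Lss and Sqle, and HFD 80 is the highest library for Sc5d, Idi1, Lss, Nsdhl, Sqle, Acat2 and Mvd.

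The BAT result lay near the threshold and moved with the processing. The lowest adjusted p of a member was 0.0556, shared by Sc5d and Fdps. Testing genes with a mean of at least 5 TPM called 4 members lower, Fdps, Sc5d, Idi1 and Nsdhl, against 4.79% of all genes, and removing the mitochondrially encoded genes before rescaling called these and Lss, against 1.81%. Under median-ratio scaling no member was called, and 6 members against 6.69% of all genes were lower at an unadjusted p under 0.05. There 1 member did not overlap, and the share of all genes without overlap was not computed. Skeletal muscle markers had different medians in the 2 groups of BAT. The 8 summed to 705.5, 695.8, 5279, 466 and 101 TPM in the HFD libraries and to 45.4, 200.7, 87.6, 42.2 and 4641 TPM in the imeglimin libraries, of which 86 and 91 had 3 of the 8 markers at 1 TPM or more. The groups overlapped, but the median was higher with HFD for each of the muscle markers, for example 186.5 against 14.45 TPM for Acta1, skeletal actin, and 53 against 4.93 TPM for Ckm, muscle creatine kinase. Without HFD 79 and imeglimin 94, the libraries with the highest sums, 9 members were lower at that unadjusted p against 15.2% of all genes. No member was called, as no gene was (0%), and 4 members did not overlap, as with all libraries. Leaving libraries out can only keep or raise that last count among genes still tested, and the share of all genes was not computed. Hepatocyte markers summed to 14.5 to 852.8 TPM in the HFD group and 24.7 to 1462 TPM in the imeglimin group of BAT, 8 of 8 markers reaching 1 TPM in 4 libraries of each, and Ttr at 0 in 1 imeglimin library. HFD 80, highest of all 10 BAT libraries for 12 members, had the lowest of those sums. White adipocyte markers summed to 1442 to 2408 TPM with HFD and 1961 to 2465 TPM with imeglimin in BAT. Of these 5 markers, the medians on HFD and with imeglimin were 113.8 and 58.6 TPM for Lep, leptin, and 441.1 and 375.5 TPM for Plin1, but 379.7 and 1032 TPM for Cfd, 15.7 and 27.1 TPM for Retn and 615.1 and 687.4 TPM for Adipoq. The 4 macrophage markers summed to 48.3 to 155.2 TPM with HFD and 43.7 to 74.5 TPM with imeglimin, and the median of each of the 4 was lower with imeglimin, for example 5.4 and 4.15 TPM for Csf1r. The part of the muscle, hepatocyte, white adipocyte and macrophage markers in the BAT differences was not tested, beyond the 2 libraries left out. In bulk tissue, fewer cells of a type and less RNA per cell cannot be told apart.

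In liver, no member passed the threshold, as no gene of 11516 tested did (0% in each direction). No member reached an unadjusted p under 0.05, where 292 genes or 2.54% were lower and 192 or 1.67% higher at that level, and none was free of overlap, against 0.417% of genes lower and 0.278% higher. The median log2 difference of the members was −0.08 against −0.01 for all genes. Of the 26, 20 had a lower mean with imeglimin, where 53.6% of all genes tested did. Only 10 members did without HFD 80 and 9 without imeglimin 89, and the shares of all genes were not computed there.

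Mvd had the lowest p in liver and stood at 38.4, 39.2, 22.6, 85.9 and 35.6 TPM in the HFD libraries and at 54.5, 15.9, 23.3, 47.2 and 22.8 TPM in the imeglimin libraries. HFD 80 was more than any other library, the rest of both groups interleaved, and the difference was −0.44 (SE 0.381, adjusted p = 0.984). Acat2 stood at 95.3, 98.5, 88.3, 136 and 102 TPM in the HFD libraries and at 138, 66.9, 72.6, 102 and 83.8 TPM in the imeglimin libraries. Here imeglimin 86 and HFD 80 were the highest, each within its own group, and the difference was −0.20 (SE 0.185, adjusted p = 0.984). Insig2, the INSIG form with a liver-specific transcript that insulin represses, stood at 219, 269, 143, 232 and 212 TPM in the HFD libraries and at 254, 178, 168, 229.8 and 110.1 TPM in the imeglimin libraries. Its lowest library was imeglimin 94, its highest HFD 76, and the difference was −0.22 (SE 0.222, adjusted p = 0.984).

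Ebp, the sterol isomerase, stood at 197, 202, 226, 226 and 194 TPM in the HFD libraries and at 244, 199.9, 211, 217 and 217 TPM in the imeglimin libraries. The groups overlapped nearly fully, with a difference of 0.06 (SE 0.0686, adjusted p = 0.986) and a 95% interval of −0.09 to 0.21. For Srebf2 the interval was −0.27 to 0.28 and for Hmgcs1 −0.96 to 0.61, so the liver data bound a change in Srebf2 far more closely than one in Hmgcs1. Sqle, with an interval of −0.83 to 0.66, was bounded as loosely.

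Most liver libraries lay to one side of their group mean for most members. HFD 80 was above its group mean for 26 of 26 members, where 43.4% of all genes tested were, and highest in its group for 22. Imeglimin 86 was above its group mean for 25 (52.3% of all genes), imeglimin 91 for 22 (36.8%), and imeglimin 89 for 1 (44%), being the lowest of all 10 libraries for 15 members. HFD 76, 79 and 83 were above for 6, 3 and 5 members (53.3%, 45.6% and 52.9% of all genes). Imeglimin 88 and 94 were above for 2 and 4 (60.6% and 48.1%). HFD 75 was not of this kind, with 12 members above. Summed over the 26 members, TPM was 3680 in HFD 80 and 2229 to 2793 in the other HFD libraries, and ran from 1900 in imeglimin 89 to 3577 in imeglimin 86. The median coefficient of variation of the members in liver was 20.6% with HFD and 29.5% with imeglimin. Mvd varied most with HFD, at 54.6%, and Ggps1 least, at 4.64%. In sWAT, HFD 80 was above its group mean for 24 of 26 members, against 59.8% of all genes, and imeglimin 89 was the lowest of all 10 libraries for 12.

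**Figure D2:**
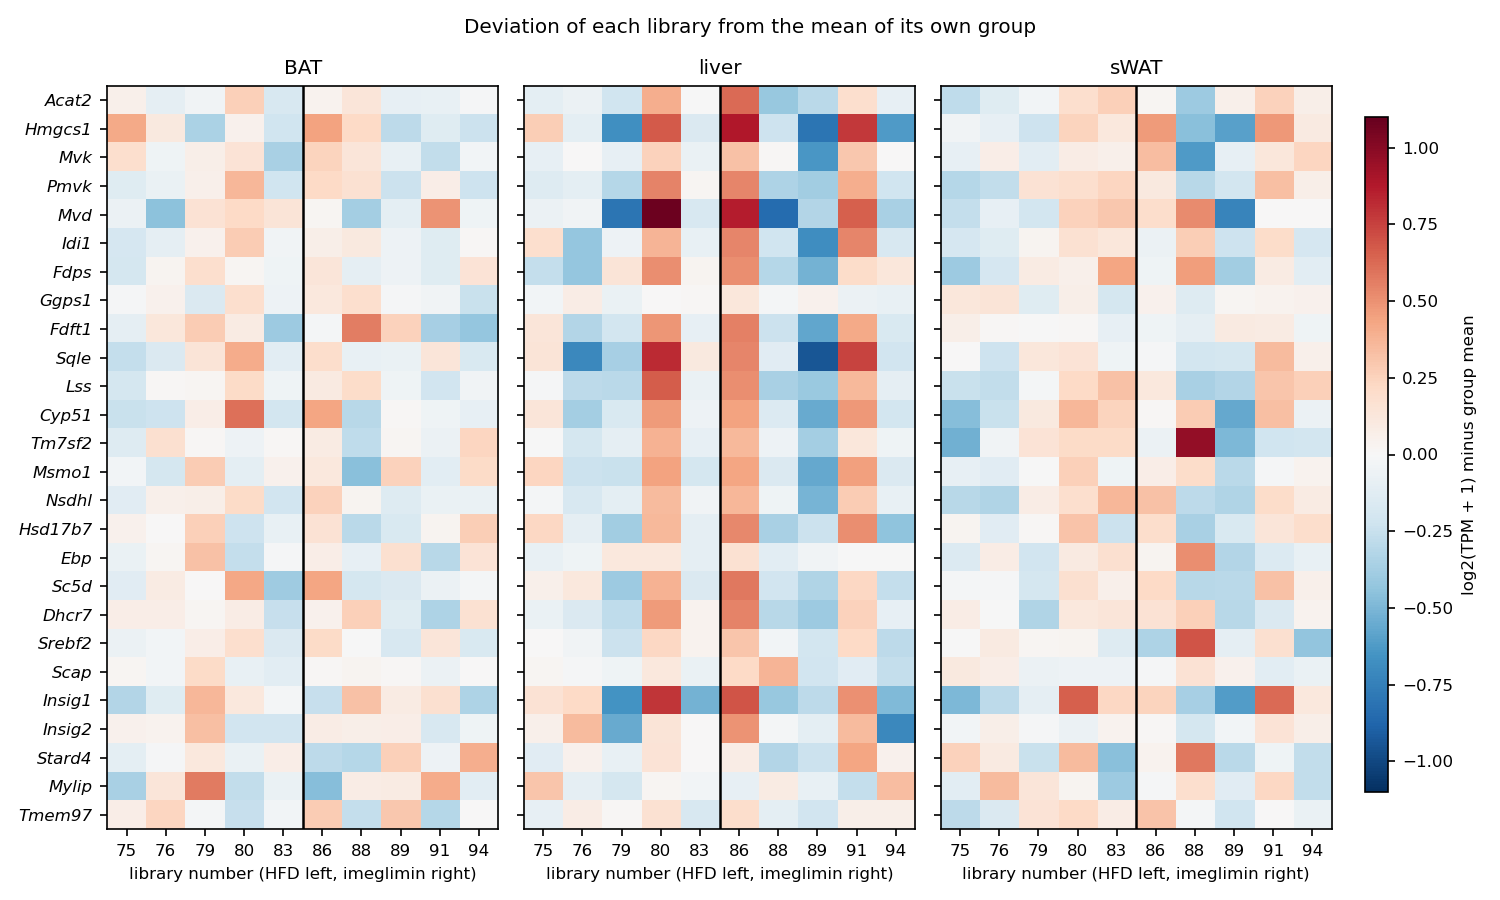
Deviation of each library (columns, numbered) from the mean of its own group for the 26 members (rows), as log2(TPM + 1), red above and blue below. In liver HFD 80 all 26 members are above the group mean, in liver imeglimin 86 25 are, and in liver imeglimin 89 only 1 is.

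In sWAT, again no member passed the threshold, and of 13736 genes tested none was called lower (0%) and 2 higher (0.0146%). At an unadjusted p under 0.05, 775 genes or 5.64% were lower and 783 or 5.7% higher. Of the members, 14 or 53.8% were lower at that level and none higher. They were Hmgcs1, Mvk, Pmvk, Mvd, Idi1, Fdps, Sqle, Lss, Cyp51, Nsdhl, Hsd17b7, Dhcr7, Insig1 and Tmem97. In 4 members, Lss, Nsdhl, Hsd17b7 and Insig1, the groups did not overlap, which is 15.4% against 1.47% of all genes lower, and none lay above in every library, against 1.58%. The members' median was −0.41 against 0.04 for all genes, and 22 of 26 lay below 0, where 43.6% of all genes did.

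Nsdhl had the lowest p of the 26 in sWAT and stood at 55.04, 54.3, 72.5, 77.9 and 88.4 TPM in the HFD libraries and at 44.1, 28.6, 27.7, 40.4 and 37.5 TPM in the imeglimin libraries. Every imeglimin value was below the lowest HFD value, and the log2 difference was −0.94 (SE 0.171, adjusted p = 0.154), with a 95% interval of −1.32 to −0.57. Insig1 had the widest difference and stood at 277, 321, 366, 618 and 459 TPM in the HFD libraries and at 208, 136, 115, 272 and 191 TPM in the imeglimin libraries. The groups were apart by a narrow margin, between HFD 75 and imeglimin 91, and the difference was −1.15 (SE 0.262, adjusted p = 0.248). Lss stood at 14.9, 14.7, 17.6, 21.04 and 22.6 TPM in the HFD libraries and at 11.4, 7.95, 8.16, 13.1 and 12.7 TPM in the imeglimin libraries. Its groups did not overlap either, with a difference of −0.72 (SE 0.174, adjusted p = 0.248).

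Dhcr7, of the last step to cholesterol, stood at 15.6, 14.7, 11.4, 15.98 and 16.2 TPM in the HFD libraries and at 11.1, 12, 7.799, 8.74 and 10.2 TPM in the imeglimin libraries. Only HFD 79 dipped below an imeglimin library, 88, and the difference was −0.53 (SE 0.135, adjusted p = 0.248). Hsd17b7 averaged 14.04 ± 2.23 TPM on HFD alone and 10.2 ± 1.82 TPM under imeglimin (SD, n = 5), a difference of −0.44 (SE 0.143, adjusted p = 0.327). Its groups were barely apart, with HFD 83 at 11.66 TPM and imeglimin 94 at 11.63 TPM. In the early pathway Hmgcs1 averaged 411 ± 53.1 and 295 ± 98.5 TPM, a difference of −0.53 (SE 0.214, adjusted p = 0.395), and Pmvk, Mvd and Mvk had log2 differences of −0.51, −0.53 and −0.40. Idi1, Fdps and Sqle had log2 differences of −0.34, −0.43 and −0.50, and Cyp51 one of −0.55. Fdft1 and Ggps1 had differences above 0, at 0.15 and 0.13.

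Srebf2 itself was not among the genes with lower means in sWAT. It stood at 25.2, 27.2, 25.7, 25.9 and 22.9 TPM in the HFD libraries and at 24.6, 51.4, 29.3, 35.6 and 23.04 TPM in the imeglimin libraries. Imeglimin 88, 91 and 89 were the highest of the 10, the other imeglimin libraries lay within the HFD range, and the difference was 0.30 (SE 0.187, adjusted p = 0.556). Scap and Insig2 had log2 differences of 0.09 and −0.02. For Insig2, at 58.2 ± 2.11 TPM on HFD alone and 57.4 ± 4.98 TPM under imeglimin, the 95% interval of the log2 difference was −0.19 to 0.14, against −1.73 to −0.57 for Insig1. Tmem97 had a log2 difference of −0.49, Mylip one of −0.13 and Stard4 one of −0.07.

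**Figure D3:**
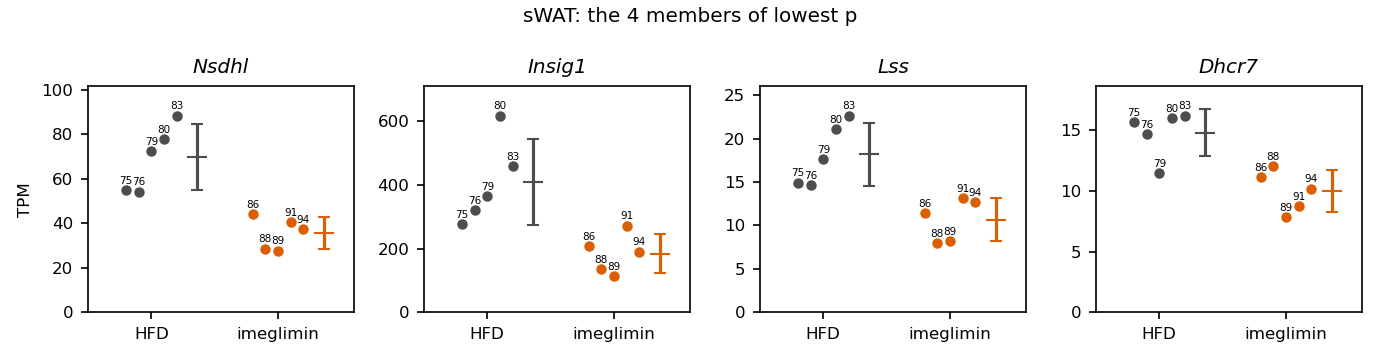
TPM (vertical axis, linear, from 0) of the 4 members with the lowest p in sWAT, by treatment (horizontal axis). Points are libraries with their numbers, and bars are the mean ± SD of 5 libraries. For Nsdhl, Insig1 and Lss every imeglimin library lies below every HFD library, and for Dhcr7 HFD 79 lies below imeglimin 88.

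Libraries of sWAT differed in cell type markers. Imeglimin 88, which carried lymph node and hepatocyte transcripts, was the highest of the 10 for 5 members, Tm7sf2, Ebp, Srebf2, Scap and Stard4, at 12, 63.4, 51.4, 28.1 and 13.5 TPM. It was also the lowest of the 10 for 8 members, among them Lss, Sqle and Hsd17b7 at 7.95, 6.78 and 7.63 TPM. Without it 14 members were lower at an unadjusted p under 0.05 against 6.1% of all genes, and the lowest adjusted p was 0.131. In 6 members the groups then did not overlap, a count that leaving a library out can only keep or raise among genes still tested. The share of all genes without overlap was not computed there. With HFD 80 left out the 14 became 9, against 3.48% of all genes. The 5 white adipocyte markers summed to 15630 to 18370 TPM with HFD, and to 20180 to 23170 TPM in 4 imeglimin libraries and 12920 TPM in imeglimin 88, so all 5 imeglimin libraries lay outside the HFD range. These 5 markers did not move together. Cfd, adipsin, ranged from 2315 to 4234 TPM with HFD and from 5918 to 10230 TPM with imeglimin, whereas the medians on HFD and with imeglimin were 5385 and 4801 TPM for Lep, 1191 and 1025 TPM for Retn, resistin, and 5969 and 6105 TPM for Adipoq, adiponectin. The 4 macrophage markers summed to 494.9 to 1228 TPM with HFD and 456.9 to 1443 TPM with imeglimin. The part of these markers in the sWAT result was not tested. In a fit of all 30 libraries that shared 1 estimate of the spread, 4 members were called lower in sWAT, against 2.09% of all genes, Nsdhl (adjusted p = 0.00106), Insig1 (0.0175), Lss (0.0253) and Tmem97 (0.0253).

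**Figure D4:**
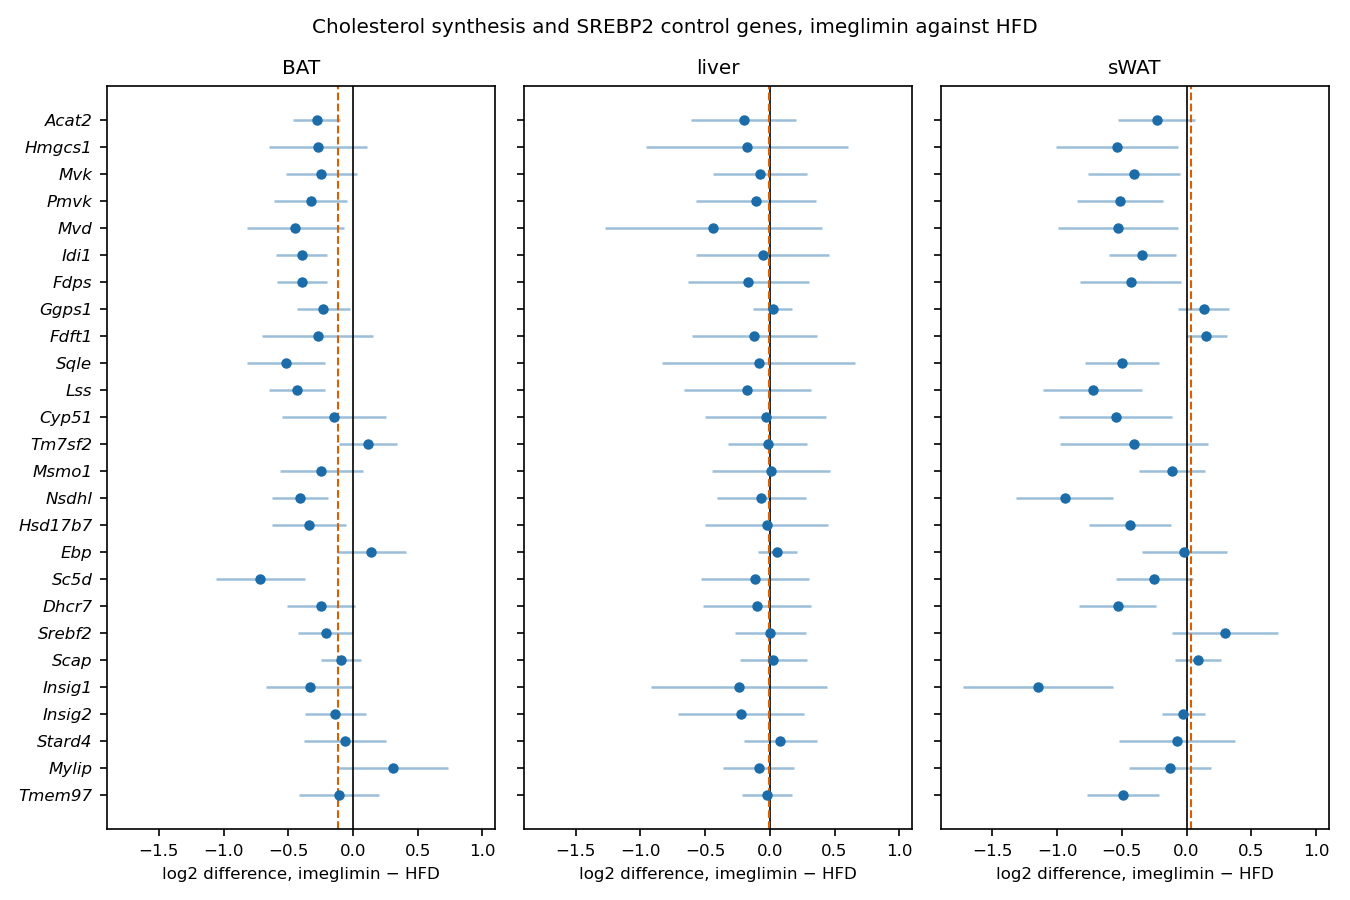
Log2 difference, imeglimin minus HFD, of log2(TPM + 1) for the 26 members (rows) in BAT, liver and sWAT (panels), with 95% confidence intervals (bars) from 5 against 5 libraries. The dashed line is the median of all genes tested in that tissue, −0.12 in BAT, −0.01 in liver and 0.04 in sWAT, and the widest differences are those of Sc5d in BAT and of Insig1 and Nsdhl in sWAT.

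The difference between tissues in the response was tested itself, over 14953 genes. For BAT minus liver no member passed, where 0.161% of genes were called lower and 0.00669% higher, and the member of lowest p, Sc5d, had a log2 difference of −0.60 (SE 0.246, adjusted p = 0.364). For BAT minus sWAT no member passed, against 1.8% of genes lower and 0.247% higher. The members' median was 0.09 where that of all genes was −0.15. Ggps1 was closest to the threshold there, at −0.36 (SE 0.113, adjusted p = 0.0800), followed by Srebf2 at −0.51 (SE 0.211, adjusted p = 0.186) and Nsdhl at 0.53 (SE 0.221, adjusted p = 0.190). Without the libraries numbered 88, Tm7sf2 at 0.83 (adjusted p = 0.0200) and Ggps1 at −0.45 (adjusted p = 0.0229) passed in BAT minus sWAT, against 5.44% of all genes lower and 0.412% higher. For sWAT minus liver no member passed, against 0.0669% of genes lower and 0.0602% higher, and Nsdhl was closest, at −0.88 (SE 0.221, adjusted p = 0.101). The responses of the 3 tissues to imeglimin were thus not shown to differ for any member with all libraries, and the wide liver intervals limit that comparison.

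Genes around the pathway were counted from 6 lists in each tissue. The lists were chosen with earlier results of these data known, so their counts describe these data and are no independent support. In BAT, the list of acetyl-CoA supply and other SREBP-responsive genes was the one with calls, 7 lower and none higher of 13 tested. Of all genes tested in BAT, 0.859% were called lower and 0.00877% higher. The list's median log2 difference was −1.02 against −0.12 for all genes. The citrate-cleaving enzyme Acly fell by 1.85 (adjusted p = 0.0446) and Slc25a1, the citrate carrier, fell by 1.02 (0.0446). Acss2, which makes acetyl-CoA from acetate, fell by 0.82 (0.0446), and Me1, a source of NADPH, fell by 1.2 (0.0291). The fatty acid genes Acaca, Fasn and Elovl6 fell by 1.5, 1.64 and 1.18 (0.0446, 0.0446 and 0.0485). No gene of this list was called without HFD 76, 79 or 80 or without imeglimin 89, 91 or 94, each left out alone. In those fits no gene of BAT at all was called (0%), and the list's median stayed between −1.01 and −0.94. Its count was 3 without HFD 75, 1 with median-ratio scaling or no variance trend, and 0 with no filter on low values.

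The other 5 lists had no call in BAT, and at most 2 calls each under any alternative. Of the SREBP processing and retention machinery 10 of 10 genes were tested, with a median of −0.23, and Vcp, which extracts proteins from the membrane, had a log2 difference of −0.23 (adjusted p = 0.104). For sterol uptake and transport 12 of 12 were tested with a median of −0.17, led by Npc2, the lysosomal cholesterol carrier, at −0.21 (0.0556), and Gramd1c at −0.29 (0.101). The isoprenoid branches, 11 of 11, had a median of −0.18, led by Fnta, a prenyltransferase subunit, at −0.21 (0.105), and Coq2, of ubiquinone synthesis, at −0.13 (0.177). For sterol efflux and LXR targets 7 of 10 were tested with a median of −0.04, led by Apoc1 at 0.50 (0.0627) and Pltp at −0.14 (0.224). Esterification and oxysterol genes, 4 of 8, had a median of −0.09, led by Cyp27a1 and Nceh1 at −0.12 and −0.14.

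None of the 6 lists had a call in liver or in sWAT when each tissue was fitted alone. In the fit of all 30 libraries, which called 2.09% of all genes lower and 1.61% higher in sWAT, the acetyl-CoA supply list had 3 genes lower there, Slc25a1 at −0.86 (adjusted p = 0.00743), Me1 at −0.87 (0.0206) and Acss2 at −0.91 (0.0336), and 1 higher, Fads1, a fatty acid desaturase, at 0.95 (0.0320). Of the other lists, 3 had 1 or 2 calls each in sWAT in that fit. With each tissue fitted alone, the medians of the 6 lists ran from −0.11 to 0.04 in liver and from −0.11 to 0.28 in sWAT. The acetyl-CoA supply list, median −1.02 in BAT, stood at −0.11 in liver and −0.07 in sWAT. In sWAT its genes of lowest p were Me1 at −0.87 and Acly at −0.42 (adjusted p = 0.248 for both), and in liver Nr0b2 at 0.36 and Lpin1 at 0.96 (0.984 for both). Scarb1, the HDL receptor, had the lowest p of the uptake list in sWAT at −0.36 (0.248). Tests of the difference between BAT and sWAT called Acaca at −1.43 (0.0122), Mbtps1, the Golgi protease that makes the first cut in SREBP2, at −0.46 (0.0160), Cyp27a1 at −0.80 (0.0460) and Scarb1 at 0.47 (0.0425). Between BAT and liver Acaca alone was called, at −1.46 (0.0328), and it was not called with no filter on low values, with median-ratio scaling, or without the libraries numbered 76, 79, 80, 89, 91 or 94. In BAT minus sWAT, Acaca was not called with median-ratio scaling or without 80, 89 or 91. Cyp27a1 was called there without 88 and not when any other single number was left out, and Mbtps1 and Scarb1 lost their calls without 79, 80, 89 or 91, among others.

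On HFD the tissues differed far more than the treatments did. Of the 26 members, 18 had their highest mean TPM in liver and 8 in sWAT, and 24 had their lowest in BAT, an order that depends on the TPM scale. Liver against BAT, 24 members were higher and 2 lower, where 44.4% of 14023 genes were higher and 30.2% lower, and the members' median log2 difference was 2.92 against 0.16 for all genes. Liver against sWAT, 16 were higher and 5 lower, against 14.9% and 76.1% of genes, with a median of 1.22 against −1.03. Under median-ratio scaling 22 were higher and 2 lower in liver than in sWAT, against 41.9% and 38.4% of genes, and Hmgcs1, Mvk, Pmvk, Lss, Srebf2 and Insig1, all highest in sWAT by TPM, had differences above 0. BAT against sWAT, 25 were lower and none higher, against 83.7% and 6.57% of genes, with a median of −1.85 against −1.26. The share in the last comparison thus lay near that of all genes, and the scale of TPM bears on it. With median-ratio scaling 13 members were lower and 2 higher in BAT, against 35.5% and 32.1% of genes. The all-gene median was then −0.02, the members' median was −0.43, and Acat2, Fdps, Fdft1, Srebf2 and Scap had differences above 0.

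Stard4 had the widest gap between liver and BAT and stood at 1.54, 1.71, 1.95, 1.61 and 1.88 TPM in BAT, at 51.02, 57.7, 52.5, 61.7 and 55.8 TPM in liver and at 11.2, 9.97, 7.65, 12.04 and 6.45 TPM in sWAT. Msmo1 stood at 2.85, 2.44, 3.78, 2.66 and 3.07 TPM in BAT, at 89.01, 64.1, 63.7, 103 and 66.1 TPM in liver and at 13.8, 13.5, 14.7, 17.99 and 14.3 TPM in sWAT. Ebp stood at 9.83, 10.6, 13.3, 8.52 and 10.3 TPM in BAT, at 197, 202, 226, 226 and 194 TPM in liver and at 39.9, 47.3, 38.3, 47.8 and 50.6 TPM in sWAT. For these 3 genes all liver values lay above all sWAT values, which lay above all BAT values, and liver minus BAT was 4.37, 4.28 and 4.2 with SE of 0.129, 0.135 and 0.102. Tm7sf2 stood at 2.43, 3.296, 2.84, 2.64 and 2.82 TPM in BAT, at 63.04, 55.2, 58.9, 82.6 and 59.2 TPM in liver and at 5.09, 7.53, 8.76, 9.15 and 9.13 TPM in sWAT, with the same order. Its differences were 4.08 for liver minus BAT, 2.87 for liver minus sWAT and −1.21 for BAT minus sWAT, all past the threshold, the last not under median-ratio scaling (adjusted p = 8.84e-14, 5.00e-12 and 3.40e-07).

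Fdps stood at 12.2, 14.5, 16.3, 14.4 and 13.6 TPM in BAT, at 153, 137, 203, 263 and 188 TPM in liver and at 29.2, 33.9, 41.2, 40.3 and 52.7 TPM in sWAT. Cyp51 stood at 4.92, 4.997, 6.36, 9.67 and 5.09 TPM in BAT, at 124, 86.9, 100.4, 157 and 108 TPM in liver and at 24.1, 28.3, 36.3, 43.8 and 40.1 TPM in sWAT. Hsd17b7 stood at 2.06, 1.98, 2.57, 1.53 and 1.797 TPM in BAT, at 49.1, 38.98, 31.7, 53.7 and 39.1 TPM in liver and at 14.3, 12.7, 14.03, 17.6 and 11.7 TPM in sWAT. Each was highest in liver and lowest in BAT with no overlap, and liver minus BAT was 3.61, 4.02 and 3.85. Sc5d stood at 23.7, 27.7, 25.99, 35.1 and 19.6 TPM in BAT, at 309.8, 323, 224, 388 and 266 TPM in liver and at 154, 155, 137, 177 and 162 TPM in sWAT. It too followed that order, with differences of 3.47 for liver minus BAT and −2.54 for BAT minus sWAT, while the lowest liver value lay above the highest sWAT value.

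The 5 members called lower in liver than in sWAT were Hmgcs1, Mvk, Pmvk, Ggps1 and Mylip. Mvk stood at 8.23, 6.85, 7.46, 8.01 and 5.32 TPM in BAT, at 19.9, 21.2, 19.8, 25.4 and 20.1 TPM in liver and at 43.96, 49.4, 43.4, 49.6 and 48.9 TPM in sWAT. Pmvk stood at 34.5, 36.1, 39.5, 49.2 and 32.5 TPM in BAT, at 53.4, 54.8, 47.3, 86.8 and 60.2 TPM in liver and at 92.5, 95.4, 129, 131 and 136 TPM in sWAT. Mvk and Pmvk were highest in sWAT, with liver minus sWAT at −1.11 (SE 0.1001, adjusted p = 1.71e-08) and −0.95 (SE 0.159, adjusted p = 2.86e-05), but under median-ratio scaling these became 0.08 and 0.26 and did not pass. Hmgcs1, at 117 ± 24.9, 290.3 ± 102 and 411 ± 53.1 TPM (SD, n = 5) in BAT, liver and sWAT, was also called lower in liver than in sWAT, at −0.56 (SE 0.2003, adjusted p = 0.0148), and median-ratio scaling reversed this to 0.66 (adjusted p = 0.00861). Ggps1 stood at 9.47, 9.904, 8.46, 11 and 9.15 TPM in BAT, at 4.79, 5.24, 4.63, 4.92 and 4.97 TPM in liver and at 30.2, 30.6, 25.1, 29 and 24.1 TPM in sWAT. Mylip stood at 11.8, 16.9, 23.2, 12.5 and 14.5 TPM in BAT, at 7.94, 5.79, 5.34, 6.34 and 6.1 TPM in liver and at 70.3, 97.2, 83.3, 77.9 and 57.4 TPM in sWAT. Ggps1 and Mylip were the only members with the lowest level in liver, by −0.84 and −1.17 against BAT and −2.28 and −3.41 against sWAT, all past the threshold.

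Acat2 was the most even across tissues and stood at 85.8, 77.2, 80.3, 99.6 and 73.2 TPM in BAT, at 95.3, 98.5, 88.3, 136 and 102 TPM in liver and at 80, 88.5, 94.8, 110.3 and 117 TPM in sWAT. The tissues overlapped, BAT minus sWAT was −0.23 (SE 0.122, adjusted p = 0.0889), and this became 0.26 when mitochondrially encoded genes were removed and 1.23 under median-ratio scaling. Liver minus BAT was 0.31 (SE 0.122, adjusted p = 0.0310), and −0.19 with mitochondrially encoded genes removed. Fdft1 stood at 17.5, 20.6, 23.1, 20.1 and 14.02 TPM in BAT, at 98.2, 71.2, 77.4, 126 and 83.8 TPM in liver and at 29.8, 28.7, 28.3, 28.7 and 26.7 TPM in sWAT. Scap stood at 9.31, 8.93, 10.7, 8.55 and 8.32 TPM in BAT, at 37.8, 36.8, 36.01, 40.5 and 35.3 TPM in liver and at 25.3, 24.8, 22.3, 22.5 and 22.5 TPM in sWAT. Both were highest in liver, and BAT minus sWAT was −0.57 and −1.27, both past the threshold, but 0.84 and 0.11 under median-ratio scaling. Srebf2 did not differ past the threshold between liver and sWAT (−0.04 (SE 0.0865, adjusted p = 0.661)), nor did Insig1, Lss, Nsdhl or Acat2, whereas under median-ratio scaling these 5 genes were higher in liver, by 0.81 to 1.29. In liver Insig1 averaged 314 ± 129.5 TPM and Insig2 215 ± 45.8 TPM, in sWAT 408 ± 135 and 58.2 ± 2.11 TPM, and in BAT 119 ± 21.8 and 13.2 ± 2.303 TPM (SD, n = 5).

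**Figure D5:**
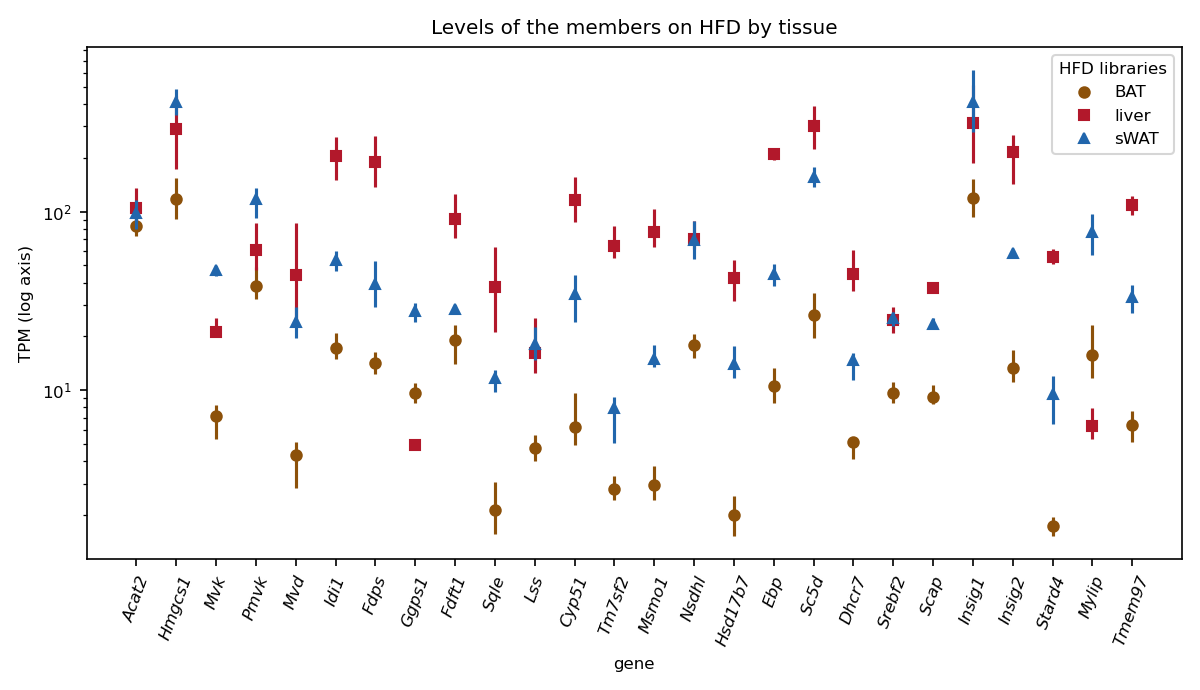
TPM on HFD (vertical axis, logarithmic) of the 26 members (horizontal axis) in BAT, liver and sWAT. Symbols are means of 5 libraries and lines run from the lowest to the highest library. BAT is lowest for 24 members, and Ggps1 and Mylip are lowest in liver.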

How the data were processed

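RNA sequencing of 30 libraries, 5 in each of 6 groups of tissue and treatment, was available as 1 table. The submitters' processing notes name the tools STAR and RSEM and genome build GRCm39. Which versions, annotation and filters were applied is not given in the sources used here. TPM values came from the authors as deposited, hold no record of sequencing depth and allow no counting interval. Per the labels' protocols, poly(A) RNA was selected and the libraries kept strand. Symbols and coordinates are from the deposited table, and promoters are from RefSeq tables on GRCm38.p6, another build.

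The tools were limma 3.58.1 under R 4.3.3 for the tests, on log2(TPM + 1), and Python 3.11.15 for descriptions. Genes that reached 1 TPM in 5 or more libraries of a fit were tested with limma's moderated two-sided test, trended variance and Benjamini-Hochberg adjustment over all of them, at 0.05. Each tissue was fitted alone for imeglimin minus HFD, all 30 libraries together for differences in response, and the HFD libraries together for tissue differences. The steps were tested on simulated data.

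The members, the gene lists and the tests were chosen with earlier results of these data known. Values by library are given for members past the threshold, the 8 of lowest p in BAT, the 4 in liver and the 4 in sWAT, and the 4 widest tissue differences in each direction. From each other list, members past the threshold or else those of lowest p are named, except 1 gene that is not reported here. Alternatives were a pseudocount of 0.1, no filter, a mean of at least 5 TPM, median-ratio scaling, removal of the 37 mitochondrially encoded genes, no variance trend, 1 fit of all libraries, the replicate block and leaving out libraries. Leaving out sWAT imeglimin 88 together with median-ratio scaling was added after seeing the data.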

Additional observations from a re-analysis of the deposited data

Results flagged for a closer look

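In 11 of 156 groups of 5 values (26 members in 6 groups), 1 library lay apart from the other 4 by more than 0.71 of the group's range, where chance gives about 5% of groups. Liver HFD 80 gave 5 of these, all high: Mvk at 25.4 TPM, Mvd at 85.9, Lss at 25.3, Tm7sf2 at 82.6 and Nsdhl at 88.8, where the next libraries of the group stood at 21.2, 39.2, 15.4, 63 and 68.2 TPM. In sWAT, HFD 80 was high for Msmo1 at 18 TPM, and imeglimin 88, the library with lymph node and hepatocyte markers, was high for Tm7sf2 at 12 TPM and low for Ggps1 at 27.5 TPM. In BAT, imeglimin 86 was high for Sc5d at 21.2 TPM, HFD 83 was low for Dhcr7 at 4.11 TPM and imeglimin 91 was low for Scap at 8.09 TPM. The 26 members share their libraries, so the 156 groups are not independent and the count of 11 cannot be weighed against 5%. What set the libraries named here apart was not tested.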

How the results depend on the processing

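In BAT, where no member was called, 4 were called lower among genes with a mean of at least 5 TPM, a filter that left 18 members, 5 with mitochondrially encoded genes removed, 1 in 1 fit of all 30 libraries, against 2.64% of all genes, and 0 to 4 when single libraries were left out: 2 without HFD 83, 2 without imeglimin 86 and 4 without imeglimin 88, against 1.79%, 1.19% and 6.04% of all genes. BAT members lower at an unadjusted p under 0.05, 11 at first against 23% of all genes, numbered 6 with median-ratio scaling. The share of all genes fell as well with that scaling, as given above. The count was 7 in 1 fit of all libraries and 8 to 14 with single libraries left out, where the shares of all genes are not given here. Non-overlapping BAT members, 4 at first against 6.58% of all genes, numbered 2 at the mean of 5 TPM and 1 with median-ratio scaling. They numbered 4 to 8 with libraries left out, 8 without HFD 83. Leaving a library out can only keep or raise this count among genes still tested. The share of all genes without overlap was not computed for these settings. With median-ratio scaling 20 of 26 BAT members lay below 0, and the share of all genes below 0 was not computed for it. In sWAT 4 members were called lower in 1 fit of all libraries, against 2.09% of all genes. Leaving libraries out gave 9 to 15 at an unadjusted p under 0.05, with 9 without HFD 80. Of the shares of all genes there, only those without HFD 80 and without imeglimin 88 are given, above. With all sWAT libraries, 14 members or 53.8% were lower at that level, against 5.64% of all genes. Without imeglimin 88 and with median-ratio scaling, an alternative chosen after seeing the data, 14 were lower at that level. In liver the count at that level was 0 to 1, with 1 without imeglimin 86. The share of all genes is not given here for the alternative chosen after seeing the data or for the liver alternatives. The BAT minus sWAT response had 0 to 1 members called lower and 0 to 1 higher, the calls arising without libraries 88.

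For BAT minus sWAT on HFD, the members' median relative to all genes, −0.59, was −0.42 with a pseudocount of 0.1, −1.33 with no filter, −0.41 with median-ratio scaling and −0.63 to −0.45 with libraries left out. There 13 members were lower and 2 higher with median-ratio scaling, against 35.5% and 32.1% of genes. That scaling turned Acat2 to 1.23, Fdft1 to 0.84 and Scap to 0.11, and removal of mitochondrially encoded genes turned Acat2 to 0.26. Liver minus BAT for Acat2 became −0.19 with that removal. Liver minus sWAT had a relative median of 1.58 with no filter. With median-ratio scaling it had 2 members lower, Ggps1 and Mylip, against 38.4% of genes, while Mvk turned to 0.076, Pmvk to 0.26 and Hmgcs1 to 0.66. The cause of these shifts was not tested.

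Counts over all genes moved more. Against 99 in BAT, 331 genes were called at the mean of 5 TPM, 228 without mitochondrially encoded genes, 398 in 1 fit of all libraries, 10 with no variance trend, 5 with median-ratio scaling, 0 with no filter or without HFD 79 and imeglimin 94 together, and 0 to 698 with single libraries left out. The sWAT count, 2, was 0 to 4 elsewhere and 553 in 1 fit of all libraries, and the liver count, 0, was 2 there. Leaving out a number gave 0 to 193 against 25 for BAT minus liver, 23 to 867 against 306 for BAT minus sWAT and 0 to 89 against 19 for sWAT minus liver, and median-ratio scaling gave 10, 32 and 2. With no filter BAT minus liver gave 5, and a pseudocount of 0.1 gave 202 for BAT minus sWAT and 2 for sWAT minus liver, where the mean of 5 TPM and removal of mitochondrially encoded genes each gave 6.

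The library numbers were not treated as pairing the samples, because 9 of 30 same-number pairs across tissues, not all, had a correlation of deviations over 0.1. These pairs had a median of 0.07 (range −0.48 to 0.31), against a median of −0.02 for pairs of unlike numbers. Whether the numbers mark the same animals remains unknown: 17 of 30 correlated best with their own number among 5 candidates each, and 4 of 5 HFD pairs of BAT and sWAT were over 0.1. With the replicate block, 0 members passed in each response difference, 25 were lower in BAT than in sWAT, and 31 against 19 genes were called for sWAT minus liver. TPM gives no depth, so low values such as those of Sqle in BAT have an unknown counting error.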
